A study of Mus musculus with 12 samples.

Results

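The 7 GABA-A receptor subunit genes Gabra2, Gabra4, Gabra5, Gabrb1, Gabrb2, Gabrg1 and Gabrd were examined for peaks of lysine crotonylation (Kcr) in mouse dorsal hippocampus. They were chosen by name out of 21887 protein-coding genes in the RefSeq table of GRCm38.p6, and each peak in the gene record or within 5 kb of its ends was assigned to the gene. Peaks came from chromatin immunoprecipitation and sequencing with a pan-Kcr antibody in C57BL/6J mice. The learning library was made from mice trained in spatial object recognition, where mice learn the places of objects, and the homecage library from mice that stayed in the home cage. The age of the mice, the time between training and dissection and the number of animals behind a library are not given in the labels, and no drug is named for either group. With 1 library per condition there was no replicate check and no test between conditions, so each value describes these 2 lists.

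GABA-A receptors are chloride channels opened by the inhibitory transmitter GABA, and each is a ring of subunits drawn from the alpha, beta, gamma, delta and further classes. Alpha subunits shape GABA affinity and location in the neuron, beta subunits form the GABA site together with alpha, and the gamma or delta subunit distinguishes mainly synaptic from mainly extrasynaptic receptors. In hippocampus, receptors with the alpha5 or delta subunit are known for tonic inhibition. Crotonylation is an acylation of lysine that on histones is commonly found at active promoters and enhancers.

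Across the 7 genes and their flanks, 1278 kb in all, 5 learning peaks and 164 homecage peaks were found. All 5 learning peaks lay in 3 genes, with 3 in Gabrb1, 1 in Gabra4 and 1 in Gabra5. No learning peak was found in or near Gabra2, Gabrb2, Gabrg1 or Gabrd. Each of the 7 genes had homecage peaks, from 3 at Gabrd to 64 at Gabrb1. The whole lists held 16002 learning and 331236 homecage peaks on chromosomes 1 to 19, X and Y, a 20.7-fold difference in length. The learning list contributed 2.96% of the 169 peaks at the 7 genes (exact Clopper-Pearson 95% interval 0.968 to 6.77%) and 4.61% of the peaks of both whole lists, which lies inside that interval. Depth and use of input are not given for either library. With 1 library per condition, a difference between conditions cannot be told apart from one between libraries or in peak calling. In bulk tissue, fewer cells with the mark and less mark per cell cannot be told apart either, and neurons and glia contribute to the same list.

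Sequence upstream of the start sites is shown first, since some starts had a peak over or beside them and others lay far from one. RefSeq entries (GRCm38.p6) were found for 6 of the 7 genes, with 1 start site each for Gabra2, Gabra4, Gabra5 and Gabrg1, 2 for Gabrb1 and 3 for Gabrb2. The 250 bases before a start are given 5′ to 3′ on the strand of the gene. CG dinucleotides, the main sites of DNA methylation in mammals, are in capitals. Gabra2 and Gabrg1 are shown because homecage peaks lay over or beside their starts. Gabra4 and Gabrb1 share a head-to-head start region without a peak in either list. Gabra5 had the learning peak nearest to a start, and the Gabrb2 starts lay in the longest homecage-free stretch around any of the 9 tabulated starts.
Gabra2, chr5:71095850-71096099, minus strand: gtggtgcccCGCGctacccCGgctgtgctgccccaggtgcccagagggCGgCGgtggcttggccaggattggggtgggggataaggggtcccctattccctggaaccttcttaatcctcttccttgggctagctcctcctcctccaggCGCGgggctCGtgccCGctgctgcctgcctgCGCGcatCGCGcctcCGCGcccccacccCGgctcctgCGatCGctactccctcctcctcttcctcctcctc
Gabrg1, chr5:70842618-70842867, minus strand: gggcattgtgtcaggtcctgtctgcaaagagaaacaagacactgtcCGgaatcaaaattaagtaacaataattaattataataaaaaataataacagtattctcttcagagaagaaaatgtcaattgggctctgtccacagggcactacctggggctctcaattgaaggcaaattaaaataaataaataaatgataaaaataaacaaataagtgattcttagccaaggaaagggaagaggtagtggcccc
Gabra4, chr5:71658309-71658558, minus strand: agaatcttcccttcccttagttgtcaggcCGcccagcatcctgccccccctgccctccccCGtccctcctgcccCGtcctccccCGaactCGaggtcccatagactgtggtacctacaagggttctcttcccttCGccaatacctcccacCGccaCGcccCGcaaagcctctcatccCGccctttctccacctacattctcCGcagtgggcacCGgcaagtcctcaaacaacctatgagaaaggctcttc
Gabrb1, first start, chr5:71657671-71657920, plus strand: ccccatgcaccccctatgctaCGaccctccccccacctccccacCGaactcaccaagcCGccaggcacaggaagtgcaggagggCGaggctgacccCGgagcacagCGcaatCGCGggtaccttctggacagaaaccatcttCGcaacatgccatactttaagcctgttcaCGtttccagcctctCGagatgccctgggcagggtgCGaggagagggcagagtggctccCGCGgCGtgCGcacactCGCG
Gabra5, chr7:57510060-57510309, minus strand: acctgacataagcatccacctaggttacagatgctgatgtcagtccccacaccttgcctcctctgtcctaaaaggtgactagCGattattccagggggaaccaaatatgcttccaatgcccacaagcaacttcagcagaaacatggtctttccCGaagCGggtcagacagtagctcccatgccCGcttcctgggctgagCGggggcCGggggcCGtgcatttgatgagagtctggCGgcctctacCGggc
Gabrb2, first start, chr11:42420190-42420439, plus strand: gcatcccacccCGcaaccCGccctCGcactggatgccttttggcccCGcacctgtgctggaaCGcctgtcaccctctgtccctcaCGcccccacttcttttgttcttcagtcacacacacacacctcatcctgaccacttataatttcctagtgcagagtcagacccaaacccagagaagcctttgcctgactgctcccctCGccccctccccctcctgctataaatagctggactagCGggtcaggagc

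The Gabra2 start, covered by a homecage peak, and the Gabrg1 start, 49 bp from one, were very unlike in base composition. Of the 250 bases upstream of Gabrg1, 0 were covered by a homecage peak. Homecage peaks also lay within 1 kb of the second Gabrb1 start (624 bp away, 6 CG dinucleotides) and the Gabra5 start (875 bp away, 9 CG dinucleotides). The Gabra2 sequence held 18 CG dinucleotides and was 70% G and C. A single CG was present in the Gabrg1 sequence, which was 35.6% G and C. Over 21263 such sequences of protein-coding genes the median was 10 CG dinucleotides and 55.6% G and C, and 29.0% had as many CG dinucleotides as Gabra2. The first start of Gabrb1 also held 18 CG dinucleotides and had no homecage peak within 5 kb, so among these genes a CG-rich start occurred with and without a peak. Over all such sequences, a homecage peak overlapped 29.6% of the 5048 with 20 or more CG dinucleotides, 19% of those with 10 to 19 and 10.4% of those with 0 to 4, and a learning peak overlapped 11.2%, 4.41% and 1.02%. The letters TATAAA, searched on both strands, occurred in the first Gabrb2 sequence and in none of the others tabulated for the 7 genes. They occurred in 11.6% of all 21263 sequences.

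**Figure D1:**
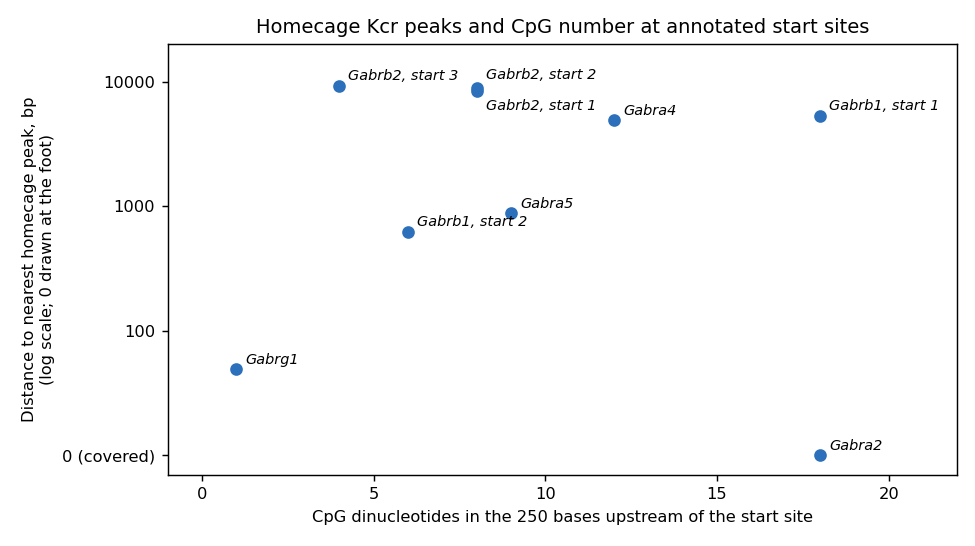
Distance from each annotated start site to the nearest homecage peak (vertical axis, bp, log scale with 0 drawn at the foot) against the number of CpG dinucleotides (CG) in the 250 bases upstream (horizontal axis), with 1 point for each of 9 tabulated start sites of 6 genes. Gabra2 (18 CG, covered) and the first Gabrb1 start (18 CG, 5306 bp away) have the same CG number and lie far apart in distance.

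Among the alpha subunit genes, Gabra2 encodes the alpha2 subunit, found at synapses and at the axon initial segment of hippocampal pyramidal cells. Its record spans chr5:70958392-71095849 on the minus strand. The homecage list had a peak of 1392 bp, chr5:71095088-71096479, across the start site at 71095849, and it covered all 250 upstream bases printed above. Only 0.777% of all homecage peaks were as wide. This peak was the widest at Gabra2. The nearest learning peak lay 161671 bp from the start site, beyond the 3′ end of the gene. It was 25325 bp from the Gabra2 homecage peak nearest to that end, chr5:70959503-70959804. The gene had 24 homecage peaks, all of them in or across the gene record, or 16.3 per 100 kb (exact Poisson 95% interval 10.4 to 24.2), the highest level of the 7 genes. Of its 24 peaks, 12 were 500 bp or wider (50%, 29.1 to 70.9%), against 24.8% in the whole homecage list. Among 4488 protein-coding genes with 10 or more homecage peaks, 4.14% had a share of wide peaks of 50% or more. Gabra2 was the only one of the 5 members with 10 or more homecage peaks to reach that share, and it was singled out after its values were seen. The cut of 50% equals its own share, and Gabrg1 was just below it at 46.2% (6 of 13, 19.2 to 74.9%).

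Gabra4 encodes the alpha4 subunit, which pairs with delta in extrasynaptic receptors of dentate granule cells. The record spans chr5:71569734-71658308 on the minus strand. It had 1 learning peak, chr5:71650963-71651406, of 444 bp, inside the gene and centred 7124 bp downstream of the start site. The widest homecage peak of the gene, chr5:71649263-71650016 (754 bp), lay 947 bp further downstream and did not overlap it. Thus the widest homecage site and the only learning site of Gabra4 were neighbours near the 5′ end, without sharing a base. In all, 9 homecage peaks gave 9.13 per 100 kb (4.18 to 17.3), the lowest level of the 7 genes. The interval overlapped that of Gabra2.

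Gabra5 encodes the alpha5 subunit, which is enriched in hippocampus and has been studied for its part in spatial memory. Its record, chr7:57407669-57591016 on the minus strand, extends well upstream of the tabulated start site at 57510059. The single learning peak, chr7:57509507-57509698, of 192 bp, began 361 bp downstream of that start. A homecage peak of 392 bp, chr7:57508793-57509184, lay a further 323 bp downstream, 875 bp from the start. Both lists therefore had a peak whose nearer edge lay in the first kb downstream of this start, at separate positions. The homecage peak was centred 1070 bp downstream and so extended beyond that kb. The learning peak was narrow, and 77.8% of all learning peaks were at least as wide. Homecage peaks numbered 24, or 12.4 per 100 kb (7.95 to 18.5), and the widest, chr7:57402697-57403272 (576 bp), lay outside the 3′ end of the gene and inside the noncoding RNA gene Gm9962.

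Of the beta subunit genes, Gabrb1, which encodes beta1, was the longest member at 491652 bp (chr5:71657921-72149572, plus strand). It had 3 learning peaks, all far from both start sites. The first, chr5:71777912-71778199 (288 bp), was centred 78124 bp from the nearer start and 5567 bp from the nearest homecage peak. The second, chr5:72032726-72033050 (325 bp), was 7002 bp from the nearest homecage peak and lay over the pseudogene Gm15617 (chr5:72032702-72033511). A pseudogene can share reads with its parent gene, and whether that affects this position was not tested. A pseudogene was overlapped by 2.73% of all learning peaks and by 1.49% of all homecage peaks. None of the 164 homecage peaks at the 7 genes overlapped one.

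The third learning peak of Gabrb1, chr5:72073801-72074426 (626 bp), was the widest of the 5, and 8.14% of all learning peaks were as wide. It overlapped the homecage peak chr5:72074148-72074546 (399 bp) over 279 bp. This intragenic site was the only position at the 7 genes called in both lists. Gabrb1 had 64 homecage peaks, or 12.8 per 100 kb (9.83 to 16.3). Its widest, chr5:71955623-71956524, measured 902 bp and lay inside the gene, 256142 bp from the nearer start.

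Gabrb2 encodes beta2, a partner in a large share of brain GABA-A receptors, and spans chr11:42419515-42632591 on the plus strand. It had no learning peak. The 28 homecage peaks gave 12.6 per 100 kb (8.34 to 18.1). All 3 tabulated starts lay in a stretch of 19781 bp without a homecage peak, chr11:42411977-42431757, and the nearest homecage peak was 8464 bp from the first start. The widest homecage peak at any of the 7 genes was inside this gene, chr11:42551256-42553170, with 1915 bp, centred 131012 bp downstream of the nearest start. Only 0.185% of all homecage peaks were as wide. Gabrb2 thus combined the widest homecage peak of the 7 genes with the longest homecage-free stretch around a tabulated start. A homecage peak of 1000 bp or more was present at 42.0% of the 4945 protein-coding genes of 50 kb or more and at 2 of the 6 members of that length, Gabra2 and Gabrb2.

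Gabrg1 encodes gamma1, a less common gamma subunit, and spans chr5:70751047-70842617 on the minus strand. No learning peak was found. The nearest was 91416 bp from the Gabrg1 start and was the only learning peak between Gabrg1 and Gabra2. A homecage peak of 370 bp, chr5:70842199-70842568, ended 49 bp short of the start site, inside the gene. At the opposite end, homecage peaks of 907 bp (chr5:70751422-70752328) and 919 bp (chr5:70749027-70749945) lay on either side of the boundary. Gabrg1 was the only member with a homecage peak within 1 kb of both gene ends. Its widest homecage peak, 944 bp (chr5:70787551-70788494), lay in the middle of the gene, and a stretch of 33101 bp without a homecage peak lay between there and the start-side peak (chr5:70807710-70840810). In all, 13 homecage peaks gave 12.8 per 100 kb (6.82 to 21.9). Of the 13, 6 were 500 bp or wider (46.2%, 19.2 to 74.9%), against 24.8% in the whole homecage list.

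Gabrd encodes delta, the subunit of extrasynaptic receptors that respond to low GABA, and at 13120 bp (chr4:155384979-155398098) was the shortest member. No learning peak was found there, and its gene body held no homecage peak. Its 3 homecage peaks all lay in the flanks. On the lower-coordinate side were chr4:155382279-155383016 (738 bp) and chr4:155383791-155383937 (147 bp, the smallest width in the homecage list). On the other side was chr4:155400307-155400577 (271 bp), inside the gene Cfap74. The Cfap74 record (chr4:155392099-155466823) overlaps that of Gabrd. Among 3923 protein-coding genes of 10 to 20 kb, 14.2% had no homecage peak in the gene body. The homecage level over gene and flanks, 13.0 per 100 kb (2.68 to 37.9), was close to that of the other members. The learning peak nearest to Gabrd lay outside the 5 kb flank, 6591 bp from the homecage peak in Cfap74. In the 500 kb on either side of the Gabrd window the learning level was 1.7 per 100 kb, the highest of the 7 genes. With flanks of 20 kb the 7 genes had 6 learning peaks.

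**Figure D2:**
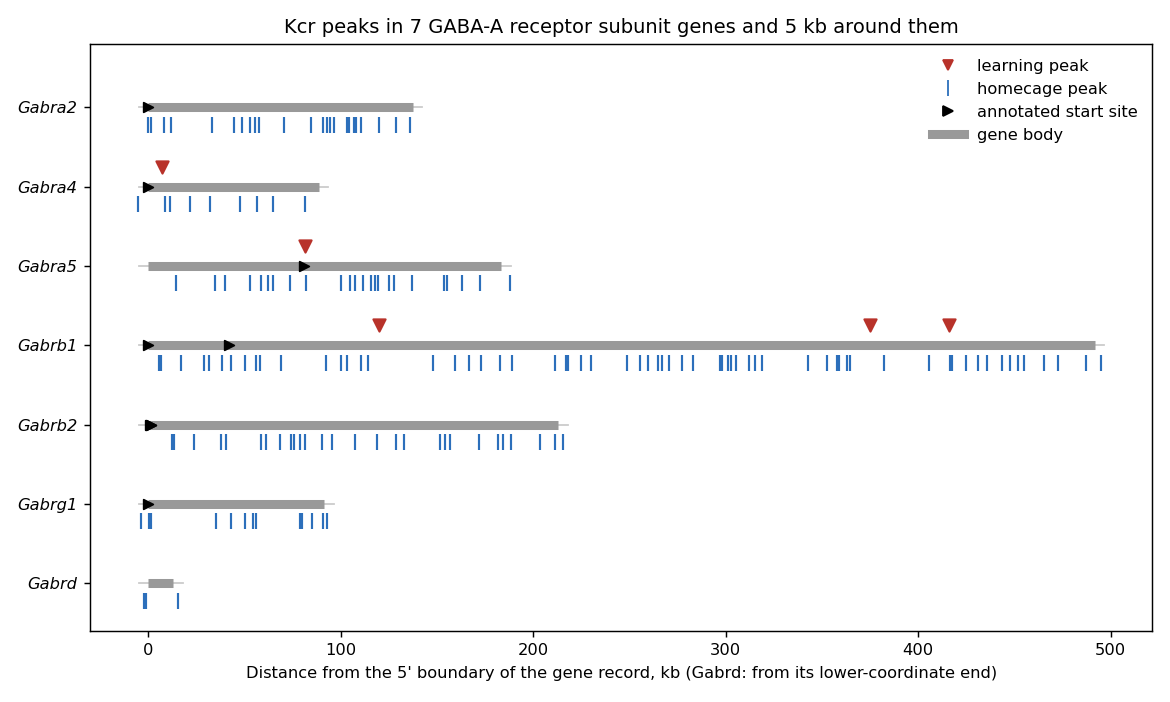
Positions of the 5 learning peaks (triangles) and 164 homecage peaks (ticks, by peak centre) along the 7 genes, in kb from the 5′ boundary of the gene record (for Gabrd, from the lower-coordinate end); grey bars are gene bodies, thin lines the 5 kb flanks and black arrows the tabulated start sites. Learning peaks occur in Gabra4, Gabra5 and Gabrb1 only, and 1 homecage peak in the flank of Gabra4 is drawn again in Gabrb1, whose window it shares.

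Gabrg1, Gabra2, Gabra4 and Gabrb1 form a cluster on chromosome 5, chr5:70751047-72149572. Gabra4 and Gabrb1 run in opposite directions from overlapping 5′ ends that share 388 bp. This head-to-head region lay in a stretch of 13210 bp without a homecage peak, chr5:71650017-71663226. The Gabra4 learning peak fell inside that stretch, 6902 bp from the Gabra4 start and 6515 bp from the first Gabrb1 start. Over the whole cluster of 1399 kb there were 7 learning and 191 homecage peaks, or 0.501 (0.201 to 1.03) and 13.7 (11.8 to 15.7) per 100 kb. Between Gabra2 and Gabra4, where 473.9 kb separate the genes, the homecage level was 14.1 per 100 kb (11 to 18). Between Gabrg1 and Gabra2 it was 16.4 (9.88 to 25.6), so the intergenic parts had levels whose intervals overlapped those of the genes. The other 3 members lie on chromosomes 7, 11 and 4.

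Peaks at gene ends were counted next. No member had a learning peak within 1 kb of either end of the gene record, where 15.6% of all protein-coding genes had one, and the count of 0 of 7 allows a share of up to 41.0%. A homecage peak lay there at 2 of 7, Gabra2 and Gabrg1, against 60.9% of all protein-coding genes, which is within the counting interval of 3.67 to 71.0%. With windows of 3 kb it was 4 of 7 (18.4 to 90.1%), against 81.3% of all protein-coding genes. By the tabulated start sites, which can lie inside the record, 1 of 6 members (Gabra5) had a learning peak within 1 kb, against 16.4% of the 17492 protein-coding genes with such a site. For homecage peaks it was 4 of 6 (Gabra2, Gabra5, Gabrb1 at its second start, and Gabrg1), against 51.5%. Gabrb2 alone of the 6 had no homecage peak within 5 kb of any start, a state shared by 19.2% of genes. These counts are near the background or within its counting error.

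The share of members with any peak was also near the background. A learning peak was present at 3 of the 7 genes and at 30.9% of all protein-coding genes. For genes of 50 kb or more, which hold more peaks per gene, it was 3 of 6 members and 54.9% of all. Homecage peaks were present at 7 of 7 members and 90.5% of all protein-coding genes, and at 6 of 6 and 96.9% of those of 50 kb or more.

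Per length, the homecage level of the 7 genes was 12.8 peaks per 100 kb (10.9 to 14.95) over their joined windows, and that of all protein-coding genes was 13.5. The homecage levels of single members, in rising order, were Gabra4, Gabra5, Gabrb2, Gabrb1, Gabrg1, Gabrd and Gabra2. Neighbours in this order did not differ beyond counting error, and the intervals of the first and the last overlapped. In the 500 kb on either side of each window the homecage level was 12.3 to 16.7 per 100 kb. Gabra2 was above its surroundings (16.3 against 14.0) and Gabra4 below (9.13 against 13.3), both within their intervals.

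Learning peaks occurred at 0.391 per 100 kb (0.127 to 0.913) over the 7 genes and at 0.786 over all protein-coding genes. At the latter level 10.0 learning peaks would fall in the same length, and the counting interval of the 5 observed was 1.62 to 11.7. A difference was therefore not detectable with this number of peaks. The ratio of these levels was 0.498 (0.162 to 1.16), and 0.323 (0.0391 to 1.17) without Gabrb1, which held 3 of the 5 learning peaks. The level was 0.652 over genes of 50 kb or more, and the learning levels of the 3 genes with peaks were 1.01 (Gabra4), 0.598 (Gabrb1) and 0.517 (Gabra5) per 100 kb. Each of the 4 genes without a learning peak had an exact Poisson upper limit of 3.69 peaks, which is 1.65 per 100 kb at Gabrb2 and 16 at the short Gabrd, where a count of 0 therefore sets only a loose limit.

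**Figure D3:**
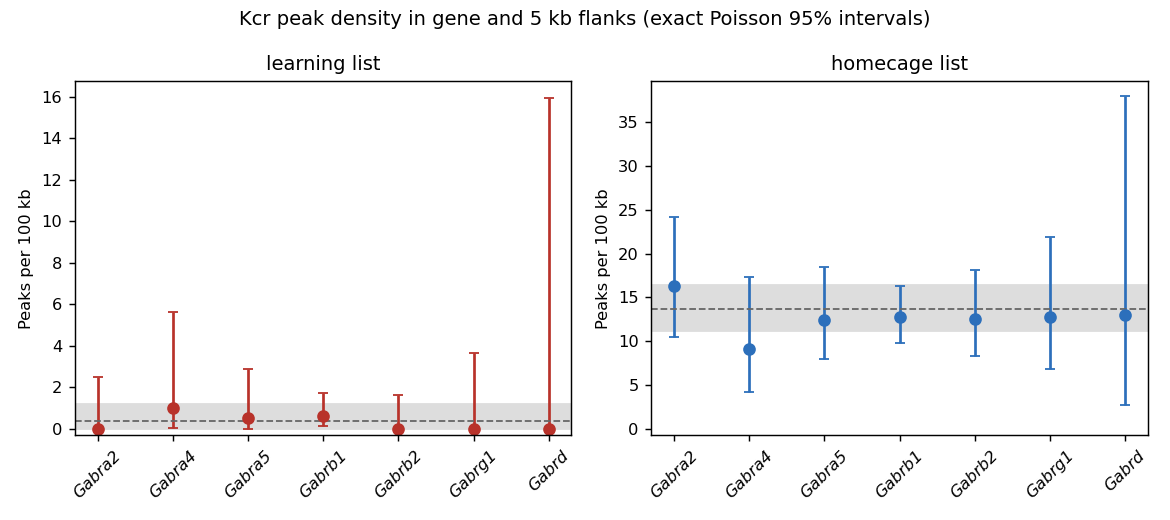
Peaks per 100 kb of gene and 5 kb flanks for each of the 7 genes in the learning (left) and homecage (right) list, with exact Poisson 95% intervals as bars. Dashed lines and grey bands give the median and quartiles of the 4945 protein-coding genes of 50 kb or more, and the interval of each member reaches into the band.

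Widths of the homecage peaks at the 7 genes had a median of 379.5 bp, and the whole list had 351 bp (quartiles 220 and 498 bp). Medians by gene were 482.5 bp at Gabra2, 370 bp at Gabrg1, 369 bp at Gabrb2, 364.5 bp at Gabrb1, 337 bp at Gabra4, 322.5 bp at Gabra5 and 271 bp at Gabrd. Gabra5 had many homecage peaks but few wide ones, 3 of 24 at 500 bp or more. Over all 7 genes 47 of 164 (28.7%) were that wide, against 24.8% of the list. The 5 learning peaks measured 192, 288, 325, 444 and 626 bp, with a list median of 306 bp.

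**Figure D4:**
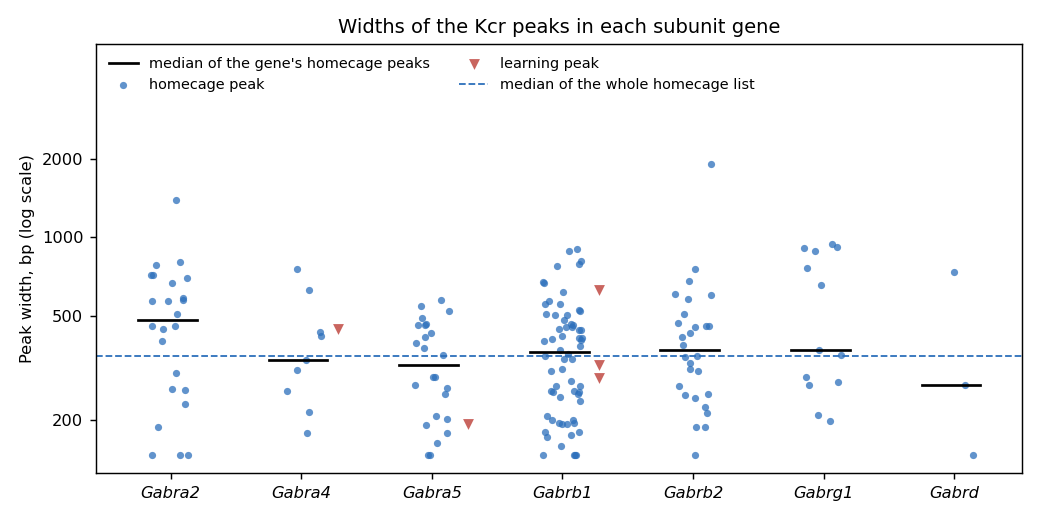
Width in bp (log axis) of each peak at the 7 genes, with homecage peaks as dots, learning peaks as triangles, a bar at each gene's homecage median and a dashed line at the median of the whole homecage list (351 bp). The widest dots are the 1915 bp peak of Gabrb2 and the 1392 bp peak of Gabra2.

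Overlap with the homecage list was found for 1 of the 5 learning peaks (20%, exact Clopper-Pearson 95% interval 0.505 to 71.6%), and 43.1% of all learning peaks did. This peak is in Gabrb1 and is lost if 50% of both peaks must overlap. Within 1 kb of a homecage peak were 3 of the 5, and 65.4% of all learning peaks. The remaining pair, both in Gabrb1, were over 5 kb from any homecage peak, as were 9.32% of all learning peaks. Along the 6 genes with a known strand, each of 5 equal parts of the gene record held 1 of the 5 learning peaks. In genes of 50 kb or more, 37.2% of learning peaks lay in the first part. Parts were measured from the record boundary, so the Gabra5 learning peak, centred 456 bp from its tabulated start, fell outside the first part. Of the 156 homecage peaks centred in these 6 genes, 27 lay in the first part (17.3%, 11.7 to 24.2%) and 39 in the fourth (25%, 18.4 to 32.6%), against 21.1% and 19.7% in the long genes. The homecage peaks were thus spread along the subunit genes at close to the proportions of long genes in general, and 5 learning peaks are too few to compare.

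Other genes of the inhibitory synapse had similar levels. Of 20 such genes, 6 had a learning peak and 20 a homecage peak, with 0.690 learning (0.377 to 1.16) and 13.6 homecage peaks (12 to 15.3) per 100 kb. The highest learning levels in that list were at Gabarapl1, a relative of the GABA-A receptor-associated protein (5.23 per 100 kb), and Nlgn2, an adhesion protein of inhibitory synapses (4.06), and each rests on 1 learning peak in a short gene. The trafficking adaptor gene Trak1 held 7 of the list's 14 learning peaks (3.74 per 100 kb). The highest homecage levels were at Gabarapl1 (26.1, from 5 peaks) and Trak1 (20.8, from 39 peaks). No learning peak was found at Gphn, the gephyrin gene whose product anchors GABA-A receptors, which had 52 homecage peaks and was named outside the rule for named genes.

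The excitatory receptor genes gave a comparison with subunit families of like size. Learning peaks per 100 kb were 0.352 (0.0958 to 0.900) over 4 AMPA receptor genes, 0.810 (0.388 to 1.49) over 7 NMDA receptor genes and 0.562 (0.357 to 0.844) over 7 kainate and delta receptor genes. The interval of the GABA-A genes, 0.127 to 0.913, overlapped all of them. Homecage levels were 10.4, 12.5 and 12.8 per 100 kb in the same order, and the AMPA value includes Gria3 on chromosome X, where 1 homecage peak was found. Within these lists the highest learning levels were at Gria2 (1.51) and Gria1 (0.609), Grin2d (4.06) and Grin1 (2.63), and Grik5 (5.27) and Grik2 (0.991), from 1 peak at Grin1, 2 each at Gria2, Gria1 and Grin2d, 4 at Grik5 and 7 at Grik2. The highest homecage levels were at Gria1 (14.0) and Gria4 (13.9), Grin3b (23.8) and Grin2c (21.3), and Grik5 (17.1) and Grik4 (16.3). In number of genes, a learning peak was present at 2 of 4 AMPA, 5 of 7 NMDA and 7 of 7 kainate and delta genes, against 3 of 7 GABA-A genes, and the kainate and delta genes were longer (median 426.8 kb against 137.5 kb).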

How the data were processed

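The 2 deposited peak lists analysed here, 1 per condition, have 4 columns: chromosome, start, end and peak name. Per the file names and peak names, broad peaks were called by the authors at a p-value of 0.01, per library. Trimmomatic, BWA, MACS2 and mm10 are named in the submitters' processing notes, without versions or roles. Use of input, read filters and depth are not given in the sources used here, so peaks could not be ranked by strength. The 8 single-nucleus libraries and 2 input libraries were not analysed here.

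Starts were converted to 1-based positions. Gene records, start sites and upstream sequences came from RefSeq tables of GRCm38.p6, the build of mm10. A peak was assigned to a gene if it overlapped the record or its 5 kb flanks by 1 bp or more, and a peak in the windows of 2 members was counted once in sums. Poisson and Clopper-Pearson 95% intervals cover counting error alone and assume independence, which neighbouring peaks lack. Members and lists were chosen with earlier results of these data known. All members were named, and of each other list the 2 genes with the highest level in each peak list. Of the single peaks, every learning peak, the widest homecage peak of each member and peaks at gene ends were given. Counting was tested on simulated peaks. Scripts ran under Python 3.11.15 with scipy 1.17.1, numpy 2.4.6, matplotlib 3.10.9 and pandas 2.3.3. Alternatives were other windows around genes and ends, wider peaks only, merged peaks, peak centres, stricter or looser overlap, and leaving out Gabrb1.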

Additional observations from a re-analysis of the deposited data

How the results depend on the processing

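No paired analysis was possible because neither group had a second antibody library, and no replicate could be left out. Recomputing gave 37 values. Of these, 30 were inside the main value's counting interval, or for counts inside a factor of 1.5, and the other 7 were outside. With peaks of 500 bp or more only, 1 learning and 47 homecage peaks remained at the 7 genes, and the learning peak had no overlap (0%) with a homecage peak of that width. Restricting homecage peaks to the widest 16002 left 8 at the 7 genes. Overlap of 50% of both peaks was met by 0% of the learning peaks, and without Gabrb1, an alternative chosen after seeing the data, 0% overlapped. Gene-end windows of 3 kb raised the members with a homecage peak from 2 to 4, and the share of all protein-coding genes from 60.9% to 81.3%. The ratio of the members' level to that of all protein-coding genes was 0.498 in the learning list, from 0.323 (without Gabrb1) to 0.6 (against genes of 50 kb or more), and 0.95 in the homecage list, from 0.924 to 1.06. The homecage ratio lay above 1 only with peaks of 500 bp or more (1.06) and was 1.0 with merged peaks, and the interval of the main value included 1 (0.81 to 1.11). A stricter q could not be applied to lists without strengths, and the learning count of 5 limits all statements on that list.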
